A study of Mus musculus with 6 samples.

Results

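A set of 10 genes that mark or regulate activated cardiac fibroblasts was followed in infarcted mouse hearts: the transcription factors Meox1, Runx1 and Scx, the matrix and secreted proteins Postn, Cthrc1 and Ccn2, the surface proteins Fap and Itga11, and the intracellular proteins Tgfb1i1 and Ddah1. They were chosen with earlier results of these data known and were taken by gene symbol. Each of the 10 had 1 feature among the 22206 features of the Clariom S mouse array. RNA came from whole hearts of 6 male mice, 1 array per heart, in 3 groups of 2. The mice were 8 weeks old per the labels, which cannot be their age when hearts were taken 2 or 3 months after infarction. The left coronary artery was ligated in all of the mice, and animals whose ejection fraction was above 45% at day 2 were removed. Control hearts (Ctrl) carried Tcf21iCre, a Cre tied to the fibroblast lineage gene Tcf21, and a Tomato reporter. One Ctrl group was taken 2 months after infarction (8W-Ctrl) and the other at 3 months (12W-Ctrl). Transgenic hearts (TTg) had the genotype Tcf21iCre/Tomato/MGTH2A, where MGTH2A stands for the cardiac factors Mef2c, Gata4, Tbx5 and Hand2. These hearts were taken at 3 months (12W-TTg). Every group was infarcted and carried the Cre and the reporter, so the values have no uninjured heart beside them. The labels do not say when the Cre was switched on.

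After an infarct, resting fibroblasts multiply, take on contractile features and lay down the scar, and later many return to a quieter state. Transforming growth factor beta (TGF-beta), signalling through SMAD proteins, and mechanical tension, signalling through the SRF and YAP-TEAD systems, are the main known drivers of this activation. Meox1, a homeobox factor, is known as a switch for TGF-beta-driven fibroblast activation. Runx1 is best known as a blood-forming factor and is also expressed by injured heart cells, and Scx is a tendon factor that acts on collagen genes. Postn, Cthrc1, Fap and Itga11 serve as markers of activated fibroblasts in many organs.

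Values below are the authors' log2 signals, and a difference of 1 is a 2-fold difference in signal. Differences are between group means, with the standard error (SE) from a limma fit to all 6 arrays (n = 2 per group). A call required an adjusted p under 0.05 (Benjamini-Hochberg over all 22206 features). Replicate arrays correlated at 0.984 to 0.989 across features, and 3.97% to 7.66% of features were at least 2-fold apart between replicates. On each array 35 to 41 features lay at 19 or more. The mean levels of 9 of the 10 genes were at or above the 30th percentile of all features (3.65). Cthrc1, with a mean of 3.56, was below it and is called dim here. Of the labelled tissue, 10 of 10 cardiomyocyte markers were measured and none was dim, and their mean signal was 18.56 to 18.99 on the 6 arrays. As a check of the genotype, Tbx5 was at 10.72 and 9.31 in TTg and at 6.42 and 7.47 in the 3-month controls, and Mef2c was at 15.93 and 13.94 against 12.52 and 12.87. Hand2 was at 9.40 and 8.13 against 8.01 and 7.57, also without overlap, whereas Gata4 overlapped, at 14.05 and 13.43 against 13.22 and 13.75 (difference 0.26 ± 0.31). Of all features, 19.1% were higher in TTg without overlap. The differences were 3.07 ± 0.52 for Tbx5, 2.24 ± 0.58 for Mef2c and 0.98 ± 0.44 for Hand2. None of these factors passed the adjusted test in limma (adjusted p 0.646 to 0.897). Whole-heart RNA cannot tell fewer cells of a type from less RNA per cell, which holds for every value below.

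**Figure D1:**
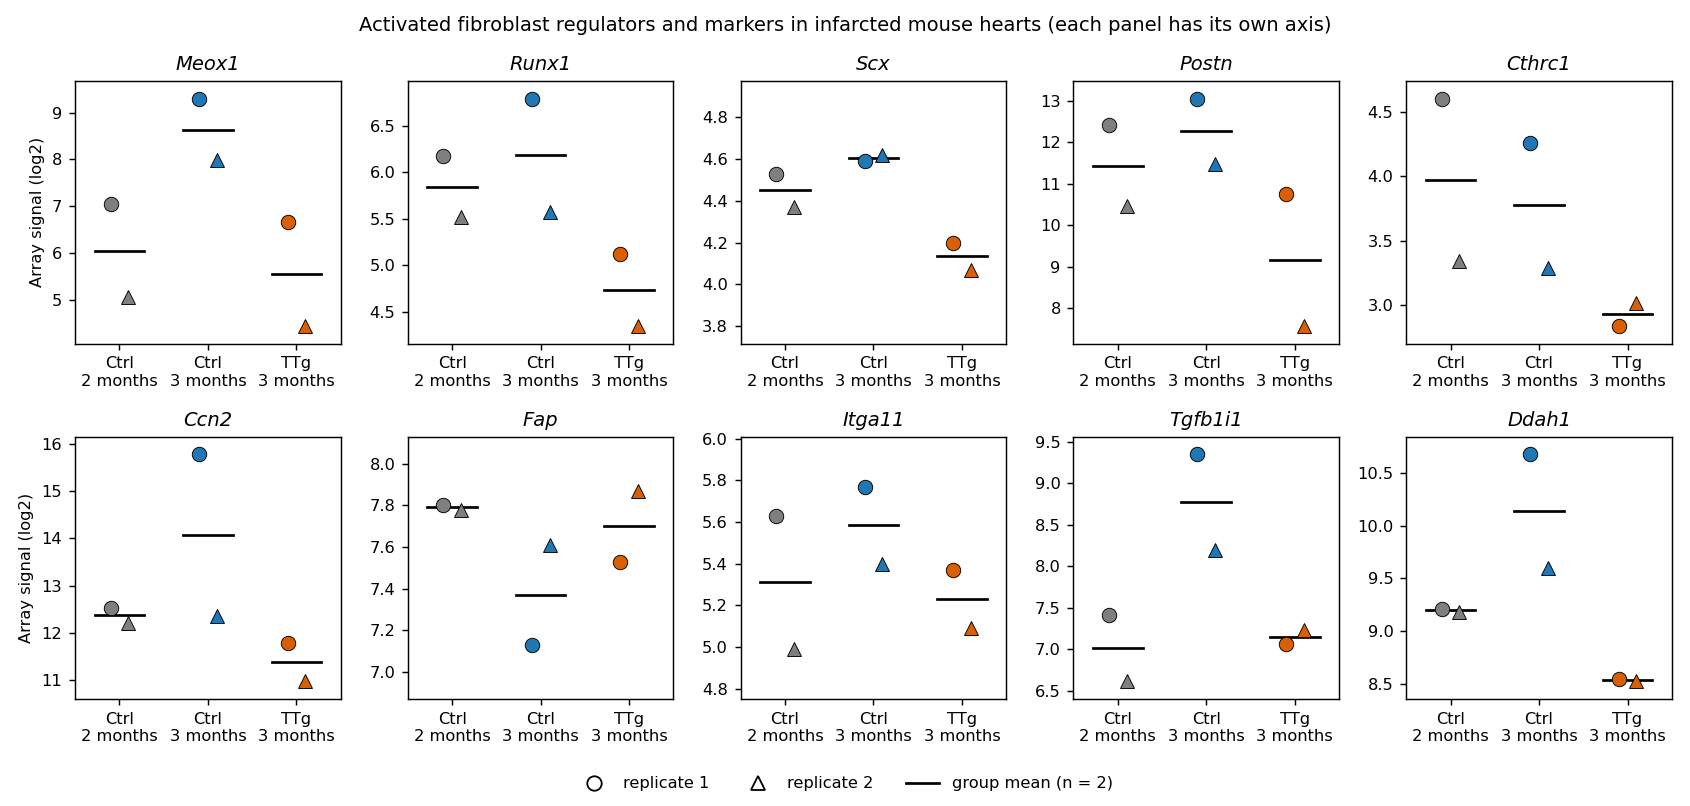
Array signal (log2, vertical axis, a separate scale in each panel) of the 10 genes in Ctrl hearts at 2 and 3 months and TTg hearts at 3 months. Circles are replicate 1, triangles replicate 2 and bars the mean of 2 arrays. Both TTg points lie below both Ctrl 3-month points for 9 of the 10 genes, and Fap is the exception.

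Promoter sequences from RefSeq (GRCm38.p6) were matched for 4 of the 10 genes, with 6 windows of 250 bases before a transcription start. No promoter sequence was available for the other genes, Meox1, Ccn2 and Tgfb1i1 among them. The 4 genes include 3 with lower signal in TTg hearts and Itga11, whose signal differed little. Windows were searched on both strands for 8 motifs, each by its letters. The SMAD element was taken as CAGACA, the element of TEAD factors as GGAATG and that of RUNX factors as TGTGGT. The E-box, which Scx and other helix-loop-helix factors bind, was CANNTG, and the AP-1 site was TGANTCA. Homeobox factors were represented by TAATTA, the TATA box by TATAAA, and SRF by its CArG box. None of these matches overlapped another. Capitals mark every match, and the 4 windows below read 5′ to 3′ on the strand of the gene.
Postn, chr3:54360857-54361106, plus strand: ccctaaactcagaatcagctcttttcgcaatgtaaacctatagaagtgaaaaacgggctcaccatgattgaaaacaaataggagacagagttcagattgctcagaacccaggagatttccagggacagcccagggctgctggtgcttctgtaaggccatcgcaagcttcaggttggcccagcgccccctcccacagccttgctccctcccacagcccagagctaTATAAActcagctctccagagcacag
Runx1, chr16:92697330-92697579, minus strand: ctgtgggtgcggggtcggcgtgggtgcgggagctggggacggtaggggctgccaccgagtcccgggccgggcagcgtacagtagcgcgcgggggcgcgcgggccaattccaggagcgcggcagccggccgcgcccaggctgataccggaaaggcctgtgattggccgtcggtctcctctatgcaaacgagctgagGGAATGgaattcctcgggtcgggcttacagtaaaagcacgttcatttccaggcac
Ddah1, chr3:145758442-145758691, plus strand: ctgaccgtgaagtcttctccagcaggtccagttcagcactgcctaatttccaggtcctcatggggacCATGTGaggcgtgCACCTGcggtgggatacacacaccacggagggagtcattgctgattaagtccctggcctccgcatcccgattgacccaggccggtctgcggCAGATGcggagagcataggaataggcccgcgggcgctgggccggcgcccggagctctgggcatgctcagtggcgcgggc
Itga11, chr9:62677605-62677854, plus strand: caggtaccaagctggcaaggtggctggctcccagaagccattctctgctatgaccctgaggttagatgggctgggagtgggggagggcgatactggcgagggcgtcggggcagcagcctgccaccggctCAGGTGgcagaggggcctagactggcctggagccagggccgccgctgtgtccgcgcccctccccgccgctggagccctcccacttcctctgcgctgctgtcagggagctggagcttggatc
The Postn window, inside the annotated span of the gene (chr3:54359267-54391041), held 1 TATAAA at 26 to 21 bases before the start. The Runx1 window, at the downstream of its 2 starts, held 1 GGAATG at 55 to 50 bases before the start. Ddah1 held 3 E-boxes and Itga11 held 1. Among 32851 promoter windows of the same length in the table, 12.4% held TATAAA, 12.6% held GGAATG and 66.2% held an E-box. These shares are for any position on either strand. On the strand of the gene and just before the start, where the Postn match lay, 1.78% of plus-strand and 1.77% of minus-strand windows held TATAAA. The SMAD motif was in 17.1% of them, the RUNX motif in 14.0%, the AP-1 motif in 6.75%, the homeobox motif in 4.84% and the CArG box in 1.47%. The upstream Runx1 window held 3 E-boxes and the upstream Postn window held none of the motifs. No window of these genes held the SMAD, RUNX, AP-1, homeobox or CArG motif, which says only that those letters were not in 250 bases. These matches describe the sequence and not binding.

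The first comparison, TTg against Ctrl at 3 months, asks how the transgene relates to activated fibroblast genes in the chronic infarct. Signal of the transcription factors Meox1 and Runx1, of Postn and Ccn2, and of Tgfb1i1 and Ddah1 was 2.72-fold to 8.51-fold lower in TTg hearts, while Scx, Itga11 and Fap differed by at most 1.39-fold. None of the 10 passed the adjusted test in limma (adjusted p 0.646 to 0.833), where 1 feature in all, 0.0045%, was called. Means were lower for 9 of the 10 and higher for 1, against 48.3% and 50.9% of all features. At an unadjusted p under 0.05, 6 of the 10 were lower and 0 higher, against 4.11% of all features lower and 3.35% higher. The groups did not overlap for 9 of the 10, all lower, against 19.3% of all features lower and 19.1% higher. The median difference of the 10 was −1.53, beside 0.01 for all features. Since the 10 were chosen with earlier results of these data known, these counts and medians are a description and not a test. With 1 array left out the median of the 10 ran from −2.10 to −0.91, and it was −0.91 without 12W-Ctrl replicate 1.

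Among the regulators, Meox1 (chr11:101877510-101894354; gene positions here are RefSeq's on GRCm38.p6) was at 9.30 and 7.98 in the 3-month controls and at 6.67 and 4.44 in TTg. Both TTg hearts lay below both Ctrl hearts, and the replicates of each group were themselves more than 1 log2 unit apart. The difference was −3.09 ± 0.89 (SE, n = 2, 95% interval −5.18 to −0.99), 8.49-fold lower, with limma's adjusted p = 0.661. Only 20 of the 22206 features had a lower difference. Without 12W-Ctrl replicate 1 it was −2.43, and without 12W-TTg replicate 2 it was −1.97.

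Runx1 (chr16:92601466-92826074) was at 6.79 and 5.57 in the 3-month controls and at 5.12 and 4.35 in TTg, with no overlap. Its difference was −1.45 ± 0.47 (95% interval −2.56 to −0.33), 2.72-fold lower, with an adjusted p of 0.661 in limma, and it was −0.84 without 12W-Ctrl replicate 1. Scx, the tendon factor (chr15:76457411-76459468), had a narrow range, at 4.59 and 4.62 in Ctrl and 4.20 and 4.07 in TTg. The groups did not overlap, but the difference of −0.47 ± 0.22 was small (95% interval −1.0 to 0.06, limma's adjusted p = 0.692).

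Postn, a matricellular protein of healing scars, was at 13.05 and 11.47 in the 3-month controls and at 10.76 and 7.58 in TTg. The lowest Postn value on the 6 arrays was that of TTg replicate 2, and the TTg hearts differed from each other by 3.18. The difference was −3.09 ± 1.09 (n = 2, 95% interval −5.67 to −0.51), 8.51-fold lower, with limma's adjusted p = 0.661. Without TTg replicate 2 it was −1.50, and without 12W-TTg replicate 1 it was −4.68.

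Ccn2, a matrix-associated growth factor also called CTGF (chr10:24595442-24598683) that TGF-beta and YAP-TEAD activity induce, was at 15.78 and 12.36 in the 3-month controls and at 11.79 and 10.97 in TTg. One Ctrl array, replicate 1, stood 3.42 above its partner and above every other array. The difference was −2.69 ± 0.96 (95% interval −4.95 to −0.43, limma's adjusted p = 0.661). It was −0.98 without that array and −4.40 without 12W-Ctrl replicate 2. Cthrc1, a secreted protein of collagen-producing fibroblasts (chr15:39076932-39087121), was at 4.26 and 3.29 in Ctrl and at 2.84 and 3.02 in TTg. All TTg values and 1 Ctrl value lay in the dim range, and the difference was −0.85 ± 0.48 (95% interval −1.97 to 0.28, limma's adjusted p = 0.741). Without 12W-Ctrl replicate 1 it was −0.36.

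The surface markers had small differences. Fap, a serine protease of activated fibroblasts (chr2:62500936-62575509), was at 7.13 and 7.61 in the 3-month controls and at 7.53 and 7.87 in TTg, so the groups overlapped. Its mean was higher in TTg by 0.33 ± 0.27 (95% interval −0.30 to 0.96, limma's adjusted p = 0.827). With 1 array left out it ran from 0.09 to 0.57. Itga11, the collagen-binding integrin subunit of activated fibroblasts (chr9:62677855-62783979), was at 5.77 and 5.4 in Ctrl and at 5.37 and 5.09 in TTg. The groups were separated by 0.03 between the nearest hearts, and the difference was −0.36 ± 0.30 (95% interval −1.06 to 0.35, limma's adjusted p = 0.833). With 1 array left out it ran from −0.54 to −0.17.

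For the intracellular genes the TTg replicates lay close together. Tgfb1i1, a focal adhesion LIM protein also called Hic-5 (chr7:128246812-128255699), was at 9.35 and 8.19 in the 3-month controls and at 7.06 and 7.23 in TTg. The groups were clearly apart, with a difference of −1.63 ± 0.43 (95% interval −2.65 to −0.60), 3.08-fold lower, and limma's adjusted p = 0.661. Ddah1, which breaks down the nitric oxide synthase inhibitor ADMA and has been used as a marker of scar fibroblasts (chr3:145758692-145894277), was at 10.68 and 9.60 in Ctrl and at 8.54 and 8.52 in TTg. The difference was −1.61 ± 0.36 (95% interval −2.46 to −0.76), 3.05-fold lower, with limma's adjusted p = 0.646. For both genes the unadjusted p stayed under 0.05 in all 14 alternatives, with differences of −2.21 to −1.05 for Tgfb1i1 and −2.15 to −1.07 for Ddah1, both smallest without 12W-Ctrl replicate 1.

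**Figure D2:**
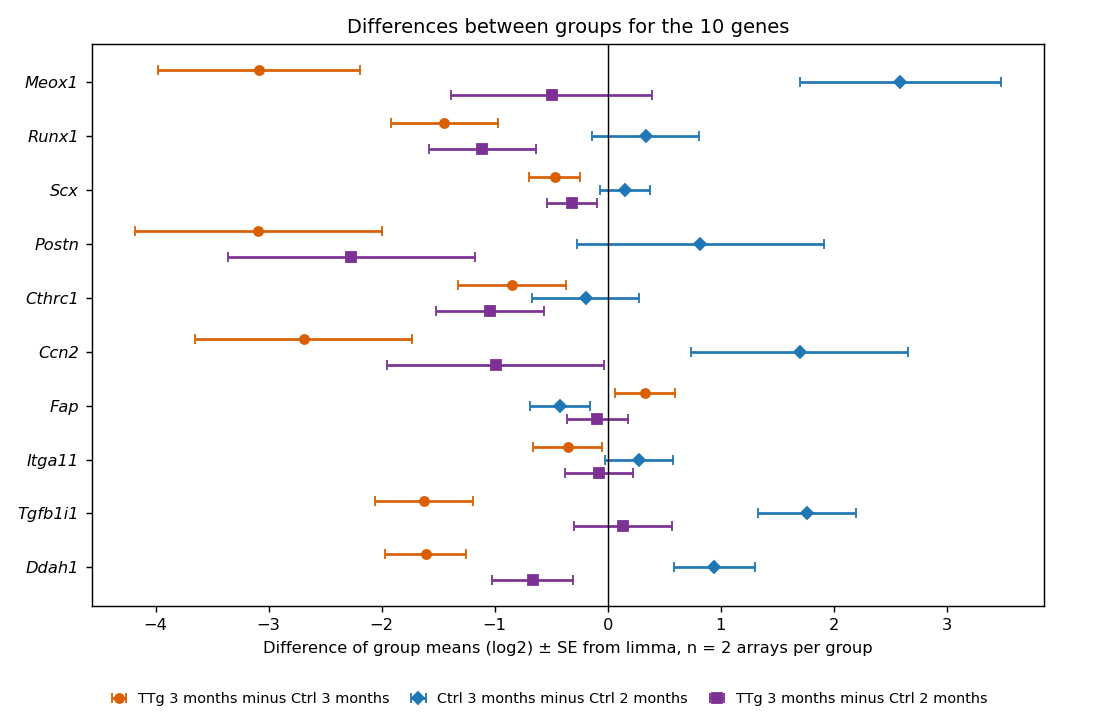
Differences of group means (log2, horizontal axis) for the 10 genes in the 3 comparisons, with bars for the SE from limma and n = 2 arrays per group. In TTg against Ctrl at 3 months the differences run from −3.09 for Postn to 0.33 for Fap.

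Control hearts at 3 months against 2 months show how these genes stood without the transgene in different hearts taken at the 2 times. Meox1, Tgfb1i1 and Ddah1 had higher signal at 3 months, with differences of 2.59 ± 0.89, 1.76 ± 0.43 and 0.95 ± 0.36. With 1 array left out they ran from 1.60 (without 8W-Ctrl replicate 2) to 3.58 for Meox1, 1.18 to 2.34 for Tgfb1i1 and 0.41 (without 12W-Ctrl replicate 1) to 1.49 for Ddah1. None of the 10 passed the adjusted test in limma (adjusted p 0.476 to 0.946), where 0.0045% of features were called. Means were higher for 8 of the 10 and lower for 2, against 50.5% and 48.8% of all features. At an unadjusted p under 0.05, 3 of the 10 were higher and 0 lower, against 3.91% and 4.09% of all features. The median difference of the 10 was 0.58, beside 0.01 for all features. It was 0.06 without 12W-Ctrl replicate 1, 1.22 without 12W-Ctrl replicate 2 and 0.043 without 8W-Ctrl replicate 2.

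At 2 months Meox1 was at 7.04 and 5.06, below both 3-month Ctrl values. Tgfb1i1 was at 7.41 and 6.61, again below both. Ddah1 was at 9.21 and 9.18 at 2 months, below both 3-month hearts. For these 3 genes the groups did not overlap, and Scx (4.53 and 4.37 at 2 months) was also without overlap in the higher direction. That makes 4 of 10, against 18.3% of all features, with a difference of only 0.16 ± 0.22 for Scx.

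Ccn2 was at 12.53 and 12.21 at 2 months, next to the 12.36 of 12W-Ctrl replicate 2. Its difference between the times, 1.70 ± 0.96, was −0.01 without 12W-Ctrl replicate 1. Postn was at 12.41 and 10.47 and Runx1 at 6.17 and 5.52, both overlapping the 3-month values, with differences of 0.82 ± 1.09 and 0.34 ± 0.47. Cthrc1 (4.60 and 3.34 at 2 months) and Itga11 (5.63 and 4.99) overlapped too, with differences of −0.20 ± 0.48 and 0.28 ± 0.30. Fap was at 7.80 and 7.78 at 2 months, the 1 gene whose 3-month Ctrl values both lay lower (−0.42 ± 0.27, limma's adjusted p = 0.727), against 17.4% of all features.

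Set against the 2-month control hearts, TTg hearts had a lower mean for Postn, Runx1 and Cthrc1 by more than 1 log2 unit. These groups differ in both genotype and time after infarction, and the 2 cannot be told apart here. The median of the 10 was −0.58, beside 0.02 for all features, and means were lower for 9 and higher for 1, against 47.3% and 52.1% of all features. In limma 0 of the 10 passed, as did 0 of all 22206 features (0%), and at an unadjusted p under 0.05 there were 0 of 10, against 5.41% of all features lower and 4.3% higher. With the 2 compared groups alone in the fit that count was 3, all lower, where 1188 of all 22206 features were lower. With 1 array left out the median of the 10 ran from −0.915 to −0.32. Runx1 had an unadjusted p of 0.0502 in limma (adjusted p = 0.513) and passed 0.05 unadjusted in 11 of 14 alternatives. The groups did not overlap for Runx1, Scx, Cthrc1, Ccn2 and Ddah1, all lower in TTg, which is 5 of 10 against 18.9% of all features lower and 21.2% higher. Differences were −1.11 ± 0.47 for Runx1, −1.04 ± 0.48 for Cthrc1, −0.99 ± 0.96 for Ccn2, −0.67 ± 0.36 for Ddah1 and −0.32 ± 0.22 for Scx. With 1 array left out they ran from −1.50 to −0.73 for Runx1, −1.67 to −0.41 for Cthrc1 and −1.40 to −0.58 for Ccn2, smallest without 12W-TTg replicate 2 for Runx1 and Ccn2 and without 8W-Ctrl replicate 1 for Cthrc1. Postn had the largest difference of the 10, −2.27 ± 1.09, with overlap between 10.76 in TTg and 10.47 in Ctrl, and was at −0.68 without 12W-TTg replicate 2.

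Meox1 and Tgfb1i1, both higher in Ctrl at 3 months than at 2 months by group mean, stood in TTg near the 2-month Ctrl level. Meox1 differed from that level by −0.50 ± 0.89 (95% interval −2.59 to 1.60) and Tgfb1i1 by 0.14 ± 0.43 (−0.89 to 1.16). Fap (−0.09 ± 0.27) and Itga11 (−0.08 ± 0.30) were also near it. The 3 comparisons share their arrays, since each group enters 2 of them, so a high Ctrl 3-month value enters the first and the second with opposite signs.

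The order of group means was TTg lowest, Ctrl at 2 months in the middle and Ctrl at 3 months highest for 7 of the 10 genes (Meox1, Runx1, Scx, Postn, Ccn2, Itga11 and Ddah1), against 14.7% of all features. For Meox1 the neighbours TTg and Ctrl at 2 months overlapped, for Runx1 and Ccn2 the neighbours Ctrl at 2 and 3 months did, and for Postn and Itga11 both pairs of neighbours did. Scx and Ddah1 had no overlap between any of the groups, 2 of 10 against 8.28% of all features. Cthrc1 had its highest mean in Ctrl at 2 months, Tgfb1i1 its lowest there, and Fap had its lowest mean in Ctrl at 3 months.

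**Figure D3:**
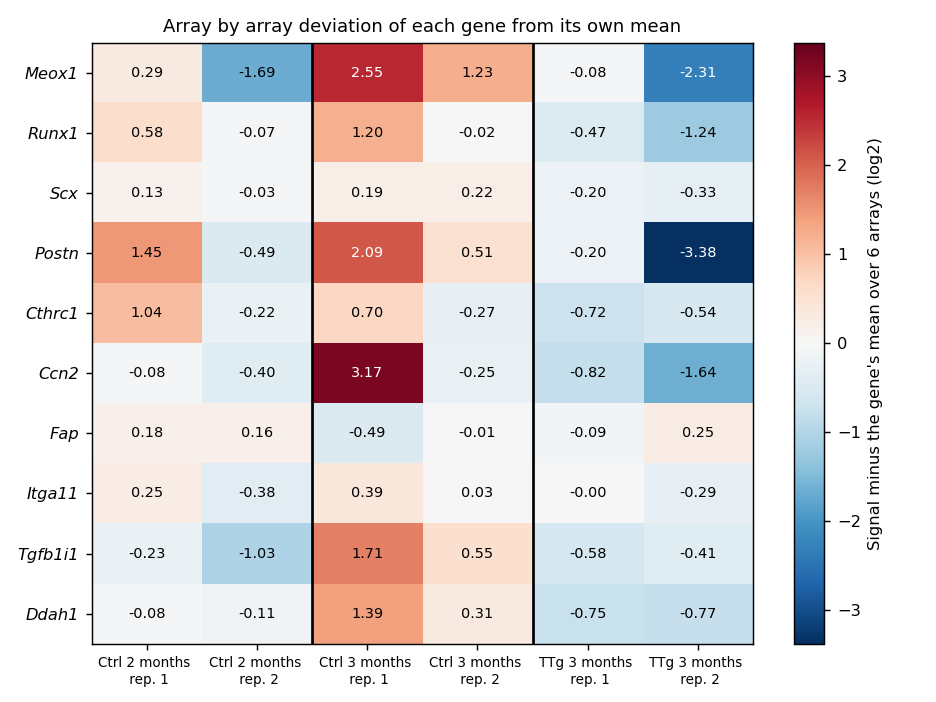
Signal of each of the 10 genes on each array minus that gene's own mean over the 6 arrays (log2, red above and blue below), with 1 column per heart and lines between the groups. 12W-Ctrl replicate 1 is above the gene's mean for 9 of the 10 genes, and TTg replicate 1 for none of them.

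Hearts of the same group also differed. Averaged over the 10 genes, the deviation from each gene's own mean was 1.29 and 0.23 in the Ctrl 3-month hearts, 0.36 and −0.42 in the Ctrl 2-month hearts and −0.39 and −1.06 in TTg. The heart numbered 1 was the higher of its group in all 3 groups for Meox1, Runx1, Postn, Ccn2, Itga11 and Ddah1. Of the general fibroblast markers, 5 of 6 were measured, none of them dim, and their mean signal was 12.04 and 10.27 in Ctrl at 2 months, 12.05 and 11 in the 3-month controls, and 10.60 and 9.52 in TTg. Macrophage markers (9 of 10 measured, none dim) were at 9.76 and 8.93, 9.96 and 8.48, and 8.17 and 7.67 in the same order. The part of either marker list in the differences of the 10 genes was not tested.

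Both lists had lower means in TTg than in Ctrl at 3 months. General fibroblast markers were lower in 5 of 5, with a median of −1.70 (−0.66 without 12W-Ctrl replicate 1 and −0.79 without 12W-TTg replicate 2), against 48.3% of all features with a lower mean. Col3a1, a scar collagen, was at −1.93 ± 0.85 and Tcf21, the gene that names the Cre, at −1.86 ± 1.0. Resting fibroblast genes, which share Tcf21 and Dcn with that list, were lower in 14 of 15, with a median of −0.97 (−0.60 without 12W-TTg replicate 2) and Fbln1, a matrix glycoprotein, at −2.29 ± 0.76. Macrophage genes were lower in 9 of 9 (median −1.30, and −0.46 without 12W-Ctrl replicate 1), with C1qb at −2.10 ± 0.64. Medians were −0.08 for 7 endothelial genes, −0.06 for 8 mural genes and 0.03 for 10 cardiomyocyte genes. The cardiomyocyte median carries little information, since 6 of the 10 had means of 19 or more and 3 read the same value on all 6 arrays. Ryr2, the calcium release channel gene, whose mean was below 19, was at 0.85 ± 0.45. The endothelial median was 0.18 without 12W-Ctrl replicate 1 and −0.43 with the other of that pair left out, and the mural median was 0.29 without 12W-Ctrl replicate 2. No gene of these lists passed the adjusted test in limma.

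Genes around the 10 were examined as lists, of which no member passed over all features in any comparison. Among 24 measured activated fibroblast genes outside the 10, 19 were lower in TTg than in Ctrl at 3 months and 4 higher, with a median of −0.62 (−0.36 without 12W-TTg replicate 2 and −0.39 without 12W-Ctrl replicate 1). At an unadjusted p under 0.05 there were 5 lower and 1 higher, against 4.11% of all features lower and 3.35% higher. Fibronectin (Fn1, −2.20 ± 0.81), the matrix protein gene Ltbp2 (−1.98 ± 0.39) and the collagen gene Col5a2 (−1.24 ± 0.35) were lower. Acta2, the smooth muscle actin of myofibroblasts and of vessel walls, went the other way, at 14.67 and 14.62 in TTg against 12.82 and 13.69 in Ctrl (1.39 ± 0.59, limma's adjusted p = 0.665). Against Ctrl at 2 months, where Acta2 was at 13.35 and 11.48, its difference was 2.23.

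TGF-beta signalling genes were lower in 15 of 17, with a median of −0.61 (−0.36 without 12W-Ctrl replicate 1). Of them 6 had an unadjusted p under 0.05, all lower, against 4.11% of all features lower. The median was −0.485 without 12W-TTg replicate 2. The largest differences were those of 2 ligand genes. Tgfb2 was at 11.08 and 9.55 in Ctrl and 8.60 and 7.53 in TTg (−2.25 ± 0.56), and Tgfb3 differed by −1.71 ± 0.66. Tgfb1, the other ligand gene of the list, named after its value was seen, overlapped between the groups (−0.65 ± 0.34). The integrin gene Itgb5 was at −1.19 ± 0.40 and Skil, a SMAD co-repressor that TGF-beta itself induces, at −1.19 ± 0.46.

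Of 15 measured regulators of the SRF and YAP-TEAD systems, 11 were lower and 4 higher (median −0.35, and −0.09 without 12W-Ctrl replicate 2). Vgll3, a TEAD cofactor of myofibroblasts, was at −1.31 ± 0.35, the Hippo kinase gene Lats2 at −0.92 ± 0.28 and Wwtr1, which encodes the coactivator TAZ, at −0.76 ± 0.25. YAP-TEAD target genes other than Ccn1 and Ccn2 were split, 7 lower and 5 higher. Their median of −0.02 turned to 0.0013 under quantile normalization and 0.02 under median centring. The median was −0.26 (8 lower, 4 higher) without 12W-Ctrl replicate 2 and −0.15 (9 lower, 3 higher) without 12W-TTg replicate 2. Of these 12 genes, Tgfb2, Ankrd1 (−1.63 ± 0.53), Nt5e (−1.36 ± 0.27) and Axl (−1.09 ± 0.44) had an unadjusted p under 0.05, all lower. Over all features 4.11% were lower at that p. Ankrd1 is also a stress gene of cardiomyocytes and reached 19 or more on 4 arrays.

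**Figure D4:**
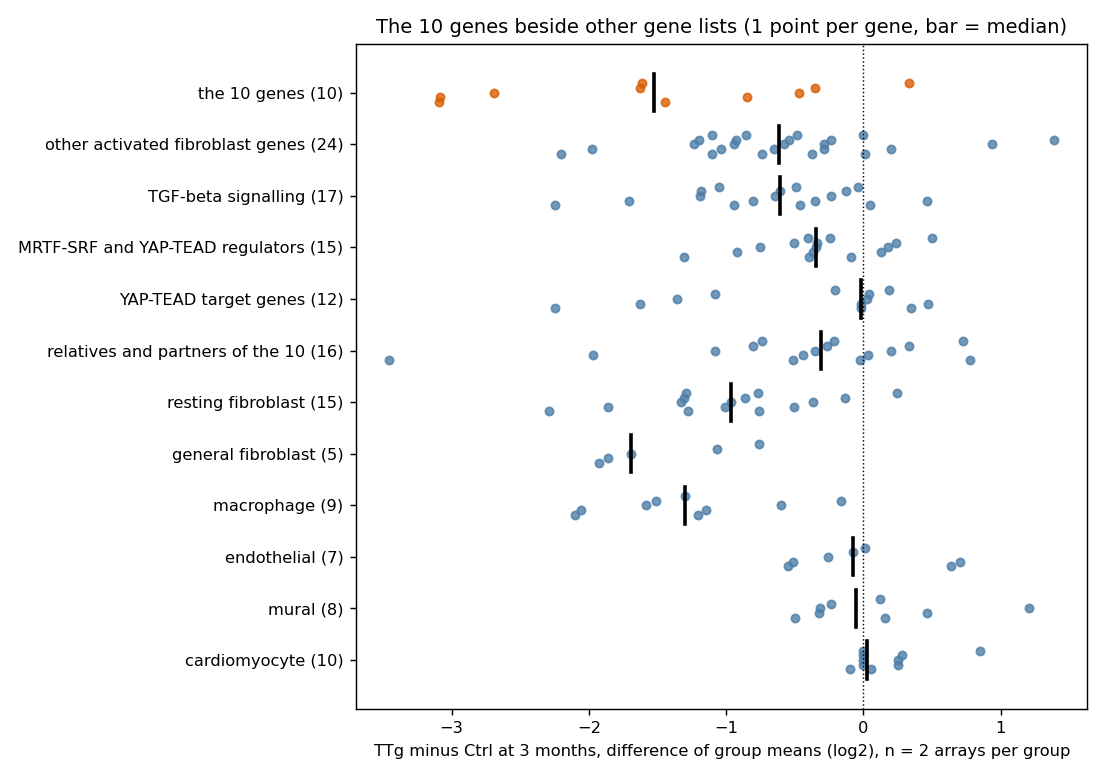
Difference between TTg and Ctrl at 3 months (log2, horizontal axis, n = 2 arrays per group) for the 10 genes and for 11 other lists, with 1 point per measured gene and a bar at each list's median. The medians are −1.53 for the 10 genes, −0.62 for other activated fibroblast genes and 0.03 for cardiomyocyte markers, of which 6 have means of 19 or more and so could show little difference.

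Relatives and binding partners of the 10 were varied. Of 16 measured, 11 were lower and 5 higher in TTg against Ctrl at 3 months (median −0.31, 0 without 12W-Ctrl replicate 1 and −0.68 without 12W-Ctrl replicate 2). Meox2, the other gene of the Meox pair, had a higher mean (0.78 ± 0.41) where Meox1 had a lower one, at 8.44 and 7.86 in TTg against 7.65 and 7.09 in Ctrl. Runx3 (−0.27 ± 0.29) and Cbfb, the partner subunit of Runx proteins (−0.51 ± 0.29), differed less than Runx1. Tgfbi, the nearest relative of periostin, was at −0.44 ± 0.39, and Dpp4, the nearest relative of Fap, at 0.03 ± 0.38. Whether a gene differed from its relative was not tested.

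Within the Ccn family, Ccn5 had the largest difference, at 10.94 and 8.56 in Ctrl and 6.93 and 5.66 in TTg (−3.46 ± 0.81, limma's adjusted p = 0.646). Ccn1, like Ccn2 a target of YAP-TEAD activity, was at 15.30 and 12.35 in Ctrl and 12.41 and 11.30 in TTg (−1.97 ± 0.88), with the same Ctrl heart high and the groups overlapping. Ccn3 had a higher mean in TTg (0.73 ± 0.37), and Ccn4 and Ccn6 were dim. Pxn, the paxillin gene related to Tgfb1i1, was at −1.08 ± 0.36, and Lpxn at −0.22 ± 0.39. Ddah2 was at −0.74 ± 0.28 against Ctrl at 3 months, and unlike Ddah1 its Ctrl signal was lower at 3 than at 2 months (−0.78 ± 0.28). Itgb1, the partner chain of Itga11, was at −0.35 ± 0.26 and Itga2 at −0.81 ± 0.49.

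The genes with the most similar pattern were sought for the 3 of the 10 whose root-mean-square deviation over the 6 arrays reached 1 log2 unit (Meox1, Postn and Ccn2), among 13829 features. Likeness was the root-mean-square difference over 6 arrays after each gene was centred on its own mean. Meox1 (own deviation 1.65) was nearest to Sfrp1 (0.40) and Frzb (0.44), secreted Wnt antagonists, then to the crosslinking enzyme gene Loxl1 (0.63). Next for Meox1 came Loxl3 (0.64) and the natriuretic peptide gene Nppb (0.64). Postn (own deviation 1.75) was nearest to the metallothionein gene Mt2 (0.41), the matrix gene Cilp (0.45) and the protease inhibitor gene Timp1 (0.53). Nppb was next for Postn as well (0.55). Ccn2 (own deviation 1.51) was nearest to Atf3, a stress-induced transcription factor (0.39), then to Btg2 (0.40) and Gadd45g (0.46). Atf3, for example, was at 11.11 in 12W-Ctrl replicate 1 and between 6.76 and 8.60 on the other arrays, and the heart that was highest for Ccn2 was also highest for Btg2 and Gadd45g.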

How the data were processed

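The deposited table gives log2 signals that the authors summarised per array feature, 1 array per heart, and per the submitters' processing notes Transcriptome Analysis Console 4.0 was used. The background, summary and normalization methods are not given in the sources used here. Per the labels, 100 ng of RNA with an integrity number above 7.0 was labelled for each array. All 22206 features were used as deposited, and 19572 had 1 gene symbol in the platform annotation. Where several features shared a symbol, the brightest by mean was taken.

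Groups came from the sample titles, and the series text calls the hearts independent biological replicates. With limma 3.58.1 (R 4.3.3) each group had its own mean in 1 model of the 6 arrays, with two-sided p adjusted over all features. The number of arrays limits the precision. The pipeline was tested on simulated data.

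The 10 genes and the 16 lists (178 of 189 genes measured), written from general knowledge, were chosen with earlier results of these data known, so the lists have counts and medians and no test. Named genes were the 10, up to 4 genes of each list by size of difference between TTg and Ctrl at 3 months, any of the relatives, and up to 5 nearest patterns, in rank order, for genes deviating by at least 1. Acta2's values against Ctrl at 2 months were chosen after they were seen. Alternatives changed the prior (trended, robust), the scaling (quantiles, centred medians), the features tested (no dim ones, or those with 1 symbol) and the arrays (the compared groups only, each array left out), or added a replicate block.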

Additional observations from a re-analysis of the deposited data

How the results depend on the processing

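None of the 10 genes passed in any comparison under the 14 alternatives, except Meox1 in TTg against Ctrl at 3 months with a replicate block (1 gene, −3.09, limma's adjusted p = 0.0457, from a range of 0.0457 to 0.999 over the alternatives). Replicate numbers are not stated to pair hearts. Differences between replicates 1 and 2 correlated at 0.120 to 0.136 between groups over features, and the block raised the calls over all features from 1 to 11 in that comparison and from 0 to 5 in TTg against Ctrl at 2 months. It changed no other call of the 10. With 1 array left out, calls over all features ran from 0 to 2 in TTg against Ctrl at 3 months, 0 to 6 in Ctrl at 3 against 2 months and 0 to 22 in TTg against Ctrl at 2 months; under the other alternatives they were 0 to 2. Leaving out 1 array moved the median of the 10 between −2.10 and −0.91 for TTg against Ctrl at 3 months and between 0.043 and 1.22 for Ctrl at 3 against 2 months. Directions reversed only in the latter comparison and in TTg against Ctrl at 2 months. With 1 array left out, Ctrl at 3 against 2 months ran from −0.01 to 3.41 for Ccn2, −0.83 to 0.44 for Cthrc1, −0.045 to 0.60 for Itga11, −0.15 to 1.79 for Postn and −0.28 to 0.95 for Runx1. TTg against Ctrl at 2 months ran from −0.26 to 0.08 for Fap, −0.40 to 0.24 for Itga11, −1.61 to 0.62 for Meox1 and −0.27 to 0.54 for Tgfb1i1. Quantile normalization gave Fap 0.0071 in that comparison. The cause of these moves was not tested. A lone array of a group was assumed to vary like the other groups. Cthrc1 was not tested where dim features were left out. The lowest feature of a repeated symbol was not run, since each of the 10 genes has 1 feature.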

Other observations

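Other transcription factors of scar and tendon were lower in 12 of 14 in TTg against Ctrl at 3 months (median −0.38). At an unadjusted p under 0.05, 1 was lower, against 4.11% of all features, and none passed limma's adjusted test. Egr2, an early response factor that acts in tendon, was at 8.93 and 6.25 in Ctrl and 5.71 and 5.07 in TTg (−2.20 ± 0.81). Sox9, a cartilage factor, was at −1.35 ± 0.65, and Sox4 had a higher mean in TTg (1.04 ± 0.51). Cartilage and tendon markers, 3 of 7 of them dim, were lower in 6 of 7 (median −0.32, and −0.16 without 12W-TTg replicate 2), with Comp at 12.02 and 8.80 in Ctrl and 6.99 and 4.06 in TTg.

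Genes of nitric oxide and ADMA metabolism, the pathway in which Ddah1 works, had a median of −0.02 in TTg against Ctrl at 3 months, which turned to 0.0023 under quantile normalization and 0.02 under median centring, and was 0.07 without 12W-TTg replicate 1. Of the 8 measured, 5 were lower and 3 higher, with none at an unadjusted p under 0.05 in limma. Epicardial and mesothelial markers were lower in 7 of 7 (median −0.39, and 0.045 without 12W-Ctrl replicate 1). Markers of other leukocytes, 5 of 7 of them dim, had a median of −0.30 (0.08 without 12W-TTg replicate 1).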
